A study of Rattus norvegicus with 9 samples.

Results

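The aldo-keto reductases are NADPH-dependent enzymes that reduce aldehydes and ketones to alcohols, and 10 rat genes of this family were followed across normal liver, liver exposed to the carcinogen diethylnitrosamine (DEN), and DEN-exposed liver of rats given Pien-Tze-Huang (PZH), a traditional Chinese formula. The genes were chosen by symbol, namely Akr1a1, Akr1b1, Akr1b7, Akr1b8, Akr1b10, Akr1c1, Akr1c3, Akr1c14, Akr7a2 and Akr7a3, and 9 of the 10 were among the 32883 genes of the deposited table. The expression of Akr1b8 was not analysed here. A further 8 rows carried an Akr symbol and were used for comparison.

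Liver RNA came from 9 male Sprague-Dawley rats, with 1 library per rat and 3 rats in each group. Rats N1, N3 and N12 were normal controls on a normal diet without DEN. Rats M13, M17 and M24 formed the DEN model group, and rats G27, G28 and G42 the PZH administration group, both from a protocol of weekly intraperitoneal injections of 0.01% DEN over 16 weeks. The treatment tag of the M rats reads PZH as it does for the G rats, and the groups therefore follow the letters of the rat names. Neither the PZH dose nor the week of collection was given for the sequenced rats, and the model is a whole-liver one in which no cell type was isolated.

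The work in liver is divided between several enzyme groups of this family. Akr1a1, aldehyde reductase, turns glucuronate into gulonate on the way to ascorbate in rodents. The Akr1b enzymes are aldose reductase and its relatives, which reduce glucose to sorbitol and clear lipid aldehydes and retinal, and human AKR1B10 is a known tumour marker of liver. The Akr1c enzymes are hydroxysteroid dehydrogenases that inactivate steroid hormones and act on bile acid intermediates, and the Akr7a enzymes reduce the dialdehyde of aflatoxin and related products, Akr7a3 being the aflatoxin aldehyde reductase known from carcinogen-exposed rat liver.

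Total counts per rat ranged from 14922973 to 27161496, and the highest belonged to rat G27. Values are given as CPM, counts brought to one common library size after TMM scaling in edgeR, for which the factors were 0.731 to 0.799 (normal control), 1.21 to 1.58 (DEN model) and 0.864 to 0.942 (PZH administration). A floor of 3 counts, which covers counting error only, corresponded to 0.125 to 0.252 CPM. With library totals alone the median over all genes moved, on the log2 scale, by 0.86 for DEN model against normal control, by -0.67 for PZH administration against DEN model and by 0.23 for PZH administration against normal control, so every direction given here is relative to the TMM scaling. Hepatocyte markers were present in every rat, and the summed CPM of 10 of them was 164279 to 177588 in the normal control, 33946 to 78970 in the DEN model and 131874 to 176672 in the PZH administration group. The summed CPM of 8 cholangiocyte and ductular markers ran from 30.6 to 43.0, from 281 to 816 and from 102 to 134 in the same order. In whole liver, fewer cells of a type and less RNA per cell cannot be told apart.

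Per length, the order of the members differed between the groups. In FPKM, which the authors scaled for gene length and library size, Akr1c14 stood highest in normal control liver with 558 ± 126 (SD, n = 3), followed by Akr1a1 with 139 ± 24.7 and Akr7a2 with 58.8 ± 15.4. The steps from Akr1c14 to Akr1a1 and from Akr1a1 to Akr7a2 were free of overlap between rats, whereas Akr7a2, Akr1c1 (35.5 ± 24.1) and Akr7a3 (25.4 ± 10.7) overlapped from each to the next, as did Akr1c3 (6.38 ± 2.12) with Akr1b1 (5.66 ± 1.06) and Akr1b10 (0.423 ± 0.352) with Akr1b7 (0.233 ± 0.299). In DEN model liver Akr7a3 led with an FPKM of 611 ± 185, above every value of Akr1c14. Akr1c14 (407 ± 38.8), Akr1a1 (349 ± 38.0) and Akr1b10 (345 ± 84.1) followed with overlapping ranges, then Akr7a2 (66.9 ± 11.9), Akr1b1 (61.2 ± 23.0) and Akr1b7 (34.6 ± 21.8), again overlapping, and last Akr1c1 (3.37 ± 2.80) and Akr1c3 (0.382 ± 0.571). In PZH administration liver Akr1c14 (532 ± 74.9) and Akr7a3 (384 ± 89.5) overlapped at the top and lay above Akr1a1 (187 ± 14.8). Below these came Akr7a2 (63.6 ± 7.50) and Akr1b10 (54.8 ± 32.8), whose ranges overlapped, Akr1c1 (18.1 ± 6.06) and Akr1b1 (15.3 ± 5.91), which also overlapped, and then Akr1c3 (3.38 ± 0.237) and Akr1b7 (0.830 ± 0.139).

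**Figure D1:**
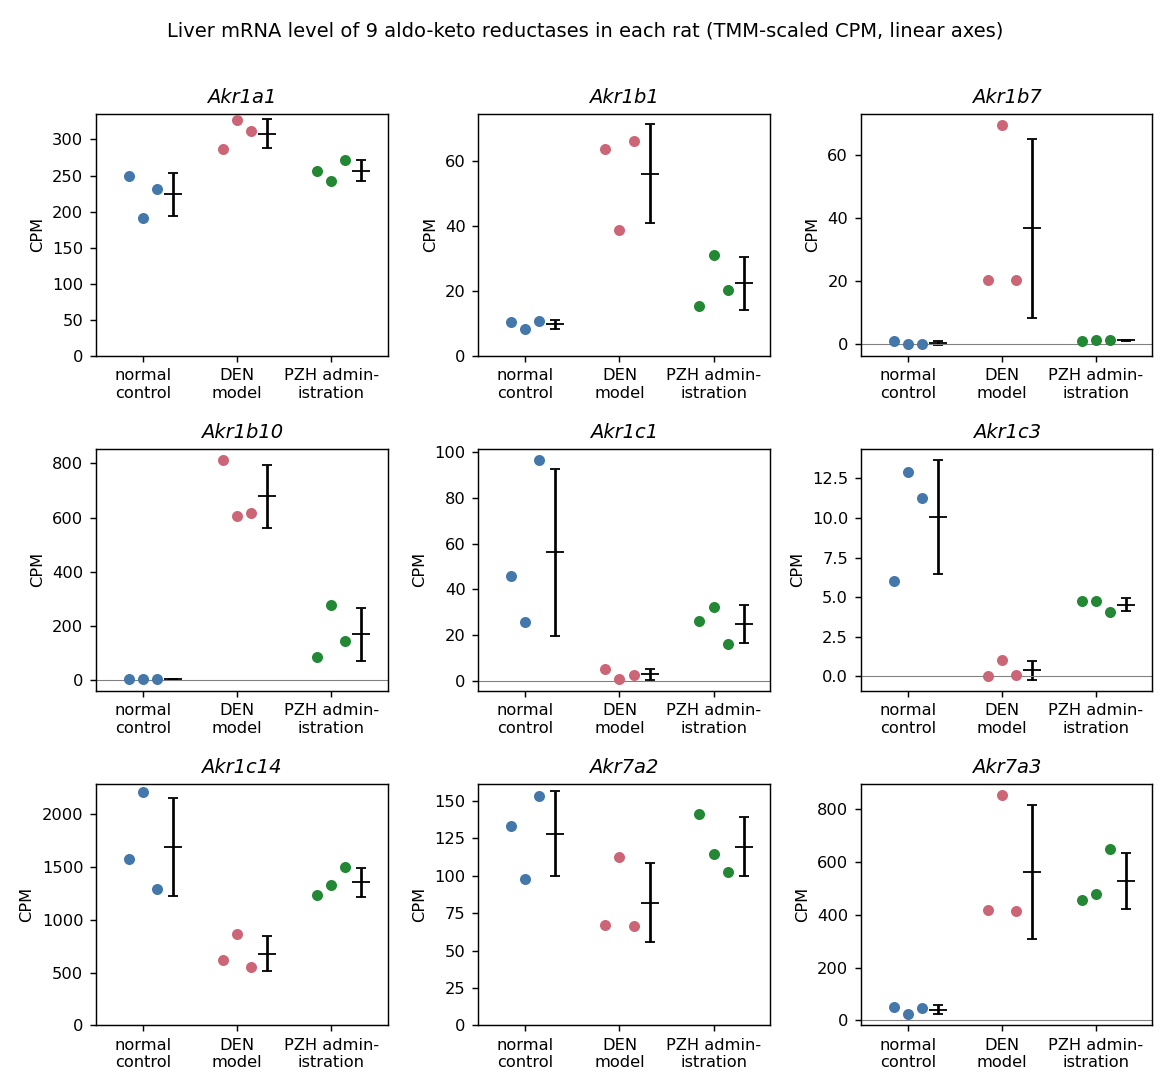
Points are TMM-scaled CPM of single rats on linear axes, 1 panel for each of the 9 members, with black bars for the group mean ± SD (n = 3). Akr1b10 was at 2.89 CPM or less in normal control rats and at 606 CPM or more in DEN model rats, while Akr7a3 was at 413 CPM or more in all DEN model and PZH administration rats.

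The first comparison, DEN model against normal control, shows how the family stood in the livers of the carcinogen protocol. Akr1b10, Akr1b7, Akr1b1 and Akr7a3 rose and Akr1c1, Akr1c3 and Akr1c14 fell, so that 7 of the 9 members were called (an adjusted p below 0.05 by the quasi-likelihood method of edgeR), as were 46.0% of all 14255 genes tested (25.4% higher and 20.6% lower). In 8 of the 9 the rats of the 2 groups did not overlap, as in 58.8% of all genes. All 9 members passed the filter on low counts in each comparison. At the study's thresholds, more than 2 log2 units in either direction with an unadjusted P under 0.001, 6 of the 9 passed against 12.3% of all genes. For its fold change the paper states a log without a base, taken here as log2. By its own processing it listed more genes in this comparison and the next. The median log2 fold change was 0.48 over the 9 members and 0.03 over all genes tested.

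The second comparison, PZH administration against DEN model, asks whether the formula moved these levels in DEN-exposed liver. Akr1b7, Akr1b10 and Akr1b1 were lower and Akr1c1, Akr1c3 and Akr1c14 higher after PZH, 6 of the 9 members at an adjusted p under 0.05 against 19.1% of 14272 genes (8.74% higher and 10.4% lower). Akr7a3, Akr7a2 and Akr1a1 did not pass. The rats of the 2 groups did not overlap in 7 of the 9 members and in 40.9% of all genes. At the study's thresholds 2 of the 9 passed, Akr1b7 and Akr1c1, against 2.42% of all genes, and the median log2 fold change was -0.07 over the members and 0.01 over all genes. The count of 6 fell to 2 without rat M13 or without rat G42, to 3 without M24 or without G27 and to 4 without G28, and it was 7 without M17. Over all genes the calls moved too, from 2729 to 313 without M13, 1329 without G42, 859 without M24, 2246 without G27, 1176 without G28 and 3330 without M17. Akr1b7 and Akr1c1 passed in each of these 6 runs.

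Against normal control rats, 3 members remained higher in the PZH administration group, Akr1b10, Akr7a3 and Akr1b1, and 0 were lower in edgeR's test, where 5.37% of 13348 genes passed (4.17% higher and 1.21% lower). DESeq2 called 1 member lower, Akr1c3, and in edgeR's test Akr1c1 and Akr1c3 had an unadjusted p under 0.05. At the study's thresholds 2 passed, Akr1b10 and Akr7a3, against 2.34% of all genes, and 5 of the 9 members had groups without overlap, against 24.2% of all genes. The 3 comparisons share their groups of rats and are therefore not independent of each other.

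**Figure D2:**
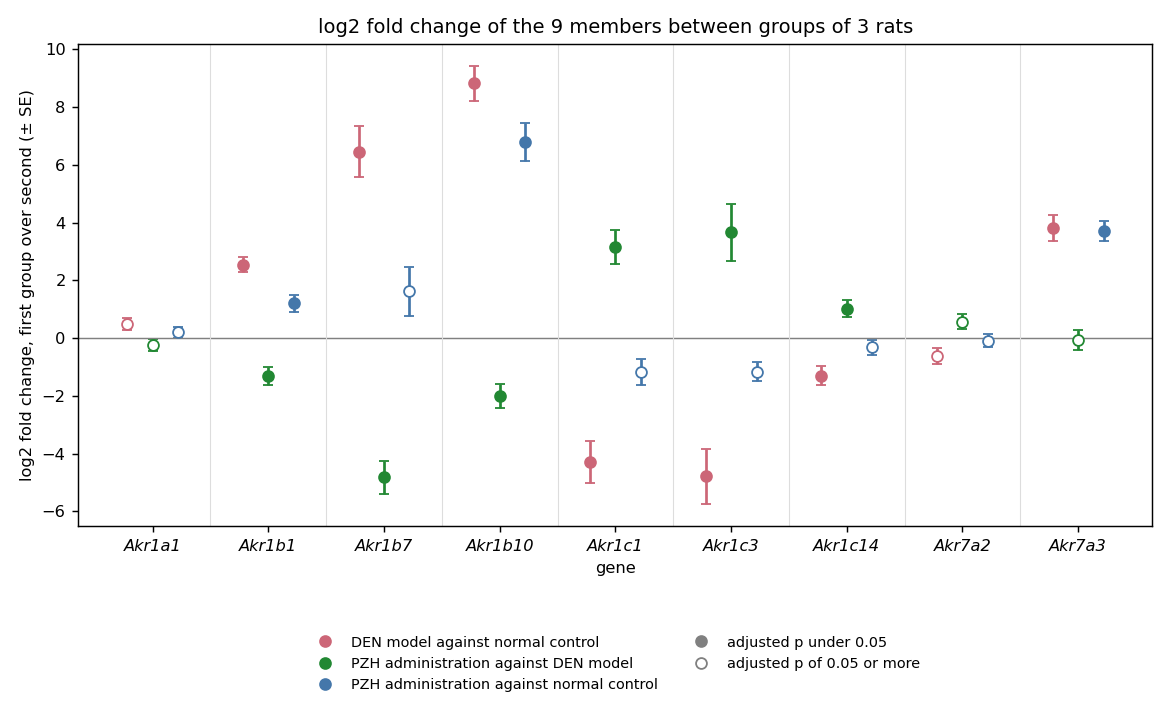
Points are log2 fold changes of the first over the second group named in the legend, with bars of ± 1 SE from edgeR's quasi-likelihood fit of 6 rats, filled where the adjusted p was under 0.05. The Akr1b and Akr1c members lie on opposite sides of 0 in DEN model against normal control rats and change sides in PZH administration against DEN model rats, Akr7a3 lies at 3.81, -0.07 and 3.71 in the 3 comparisons, and Akr7a2 turns sign under library totals in all 3.

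Among the Akr1b genes, Akr1b10 had the largest log2 fold change in DEN model against normal control rats. It had 2.89, 0.503 and 1.14 CPM in normal control rats N1, N3 and N12, then 814, 606 and 615 CPM in DEN model rats M13, M17 and M24, and 84.6, 274 and 144 CPM in PZH administration rats G27, G28 and G42. The 3 groups did not overlap, with the PZH rats between the other two and rat G28 highest among them. The log2 fold change was 8.82 ± 0.60 (SE) in DEN model against normal control rats, a 452-fold rise (adjusted p = 4.56e-05, edgeR). After PZH the level fell 3.99-fold against DEN model rats (SE 0.42 on the log2 scale, adjusted p = 0.0192), with an adjusted p of 0.0713 without M13 and of 0.0642 without G42, and it was still 6.79 ± 0.66 above normal control (adjusted p = 0.00205). The row lies at chromosome 4, 61771970 to 61828657 in the coordinates of the authors' file, whose build is not named, and this span of 56.7 kb is wider than the 22.2 kb of Akr1b10 in the RefSeq annotation of GRCr8, where Akr1b8 is its neighbour on one side and Akr1b7 on the other. Whether reads of Akr1b8 were counted in this row was not tested.

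The promoters of Akr1b10, Akr1b7 and Akr7a3 are shown because these genes rose most in DEN model rats while the first pair was lower after PZH and the other was not. RefSeq promoters of GRCr8, 250 bases before to 50 bases after the start site, were found for 8 of the 10 genes, not for Akr1b1 and Akr1c1. Each line gives the 250 bases before the start, 5′ to 3′ on the gene's strand (the plus strand for all 3), at chr4:64005382-64005631 for Akr1b10, chr4:64043720-64043969 for Akr1b7 and chr5:156876471-156876720 for Akr7a3, with capitals marking AGGTCA (or its reverse complement TGACCT), the half-site of nuclear receptors, and GTTAAT, a half-site of the hepatocyte factor HNF1.
Akr1b10: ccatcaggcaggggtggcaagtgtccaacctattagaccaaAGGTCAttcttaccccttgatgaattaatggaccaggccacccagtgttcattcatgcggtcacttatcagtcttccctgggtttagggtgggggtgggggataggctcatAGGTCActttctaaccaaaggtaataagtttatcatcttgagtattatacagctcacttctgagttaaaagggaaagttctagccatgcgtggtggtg
Akr1b7: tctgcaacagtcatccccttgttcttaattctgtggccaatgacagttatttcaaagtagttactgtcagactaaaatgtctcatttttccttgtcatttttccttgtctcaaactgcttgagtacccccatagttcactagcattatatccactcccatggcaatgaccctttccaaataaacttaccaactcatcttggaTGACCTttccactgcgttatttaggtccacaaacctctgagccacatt
Akr7a3: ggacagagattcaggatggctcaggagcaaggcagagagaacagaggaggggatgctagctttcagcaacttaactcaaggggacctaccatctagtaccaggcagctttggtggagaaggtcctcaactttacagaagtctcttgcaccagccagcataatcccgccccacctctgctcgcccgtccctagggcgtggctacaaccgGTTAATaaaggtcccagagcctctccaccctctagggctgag
Akr1b10 held AGGTCA at 209 and 98 bases before the start and Akr1b7 held it on the minus strand at 48 bases before the start. Akr7a2 held it on the minus strand at 106, and 16.2% of 33469 promoters of the same length held at least 1. GTTAAT stood in Akr7a3 alone among the 8, at 42 bases before the start, and in 7.45% of all promoters. The other motifs were also searched on both strands. The antioxidant response element core TGACNNNGC was in 0 of the 8 windows and in 12.1% of all promoters. The AP-1 site TGANTCA was in 0 of the 8 and in 7.33% of all, and TATAAA was in Akr1c3 alone, at 150 bases before the start, and in 14.2% of all. A reverse AGGTCA begins with the same 4 letters as the antioxidant core. These are matches of letters in one annotated window per gene, and the motifs were chosen after the data had been seen.

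Akr1b7, first described as an androgen-dependent protein of the mouse vas deferens and able to reduce aldehydes from steroid synthesis, was the member with the steepest fall after PZH. Normal control rats N1, N3 and N12 had 1.01, 0 and 0.229 CPM, DEN model rats M13, M17 and M24 had 20.5, 69.7 and 20.3 CPM, and PZH administration rats G27, G28 and G42 had 1.11, 1.32 and 1.42 CPM. Rat M17 stood well above the other two DEN model rats, and the PZH rats lay close to each other just above the normal range. Akr1b7 rose by a log2 fold change of 6.45 ± 0.88 in DEN model rats (adjusted p = 9.06e-04, edgeR), fell by 4.82 ± 0.58 after PZH (adjusted p = 0.00784), and differed from normal control by 1.61 ± 0.84 after PZH (adjusted p = 0.352), a difference with a 95% interval from -0.29 to 3.51. Its normal control counts were 13, 0 and 3, so folds against that group are imprecise.

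Akr1b1, aldose reductase itself, moved the same way with smaller steps. It was measured at 10.5, 8.13 and 10.6 CPM in the normal control rats N1, N3 and N12, at 63.6, 38.6 and 66.2 CPM in M13, M17 and M24, and at 15.4, 31.2 and 20.2 CPM in G27, G28 and G42. The groups did not overlap, and M17 was the lowest DEN model rat for Akr1b1 although it was the highest for Akr1b7. The log2 fold changes were 2.54 ± 0.25 in DEN model against normal control (adjusted p = 1.83e-04), -1.31 ± 0.31 in PZH administration against DEN model (adjusted p = 0.0246) and 1.20 ± 0.29 in PZH administration against normal control (adjusted p = 0.0451). The second lost its call without M13 (adjusted p = 0.0899), M24 (0.0784), G27 (0.0548) or G42 (0.0729), and the third lost it when any 1 of N1, N3, N12, G28 or G42 was left out.

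A further aldose reductase-like row on chromosome 4, LOC100910708, lay outside the Akr symbols and was picked out after its values were seen. It had 0 counts in all 3 normal control rats, 2.80, 1.98 and 1.25 CPM in M13, M17 and M24, and 0.640, 0.834 and 0 CPM in G27, G28 and G42. Its level in DEN model rats was at least 8.44-fold higher than in normal control rats when these were set to the floor of 3 counts in each library (adjusted p = 0.00154, edgeR), and the difference between PZH administration and DEN model rats had an adjusted p of 0.125. The summed CPM of the 4 Akr1b and Akr1b-like rows, to which reads of near copies may be assigned one way or another, was 8.64 to 14.4 in the normal control, 703 to 901 in the DEN model and 102 to 308 in the PZH administration group, without overlap.

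Of the Akr7a pair, Akr7a3 rose in DEN model rats as the Akr1b genes did. Its CPM was 51.8, 22.6 and 48.0 in N1, N3 and N12, 417, 855 and 413 in M13, M17 and M24, and 457, 479 and 648 in G27, G28 and G42. All 6 DEN-exposed rats of both groups lay above all normal control rats, and the PZH rats fell inside the range of the DEN model rats. The log2 fold change was 3.81 ± 0.44 in DEN model against normal control (14.0-fold, adjusted p = 3.70e-04) and 3.71 ± 0.34 in PZH administration against normal control (13.1-fold, adjusted p = 0.00154). Between PZH administration and DEN model it was -0.07 ± 0.35 (adjusted p = 0.911), with a 95% interval of -0.87 to 0.73 that does not show the 2 groups to be alike, and it was 0.35 without rat M17, the rat with the highest value.

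Within each rat, Akr1b10 and Akr7a3 parted after PZH. The ratio of Akr1b10 CPM to Akr7a3 CPM, a pair picked after the values were seen and therefore described without a test, was 0.0557, 0.0223 and 0.0238 in N1, N3 and N12, 1.95, 0.709 and 1.49 in M13, M17 and M24, and 0.185, 0.573 and 0.222 in G27, G28 and G42. Each group had its own range. On the log2 scale the mean ratio was -5.01 ± 0.74 (SD) in normal control, 0.35 ± 0.76 in DEN model and -1.80 ± 0.87 in PZH administration rats, and this ratio does not depend on the scaling between libraries.

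Akr7a2, a neighbour of Akr7a3 on chromosome 5 that reduces succinic semialdehyde, did not follow it. Normal control rats had 133, 97.4 and 153 CPM, DEN model rats 66.8, 113 and 66.6 CPM, and PZH administration rats 141, 114 and 102 CPM. The DEN model values overlapped both other groups through rat M17 alone. The log2 differences were -0.63 ± 0.27 (adjusted p = 0.0874), 0.57 ± 0.26 (adjusted p = 0.165) and -0.09 ± 0.22 (adjusted p = 0.881) in the 3 comparisons in the order given above, and under library totals they turned to 0.19, -0.073 and 0.11. Without M17 the first was -0.92 (adjusted p = 0.0105) and the second 0.85 (adjusted p = 0.0276).

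Akr1a1, the aldehyde reductase of ascorbate synthesis, had the narrowest range of the members. Its CPM was 250, 191 and 231 in N1, N3 and N12, 286, 327 and 311 in M13, M17 and M24, and 256, 242 and 271 in G27, G28 and G42. The DEN model rats were above all the others, and the PZH and normal ranges overlapped. The log2 differences were 0.48 ± 0.21 (adjusted p = 0.0923), -0.24 ± 0.20 (adjusted p = 0.425) and 0.21 ± 0.19 (adjusted p = 0.634), none past the threshold in edgeR's test, while DESeq2 called the first, with a log2 fold change of 0.48, and library totals called the first pair at 1.33 and -0.91.

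The Akr1c genes went the other way. Akr1c1, a hydroxysteroid dehydrogenase, had 45.9, 25.8 and 96.8 CPM in N1, N3 and N12, 5.31, 0.792 and 2.37 CPM in M13, M17 and M24, and 26.2, 32.4 and 15.9 CPM in G27, G28 and G42. The DEN model rats lay below all others, and the PZH and normal control ranges overlapped. Akr1c1 fell by 4.29 ± 0.71 on the log2 scale in DEN model rats (19.5-fold lower, adjusted p = 0.00224), was 3.16 ± 0.59 higher after PZH than in the DEN model (8.91-fold, adjusted p = 0.0148), and differed from normal control by -1.16 ± 0.45 after PZH (adjusted p = 0.198).

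Akr1c3, listed in RefSeq also as Akr1c18 and known as the enzyme that inactivates progesterone, was the scarcest of these. It had 6.01, 12.9 and 11.3 CPM in N1, N3 and N12, 0, 1.04 and 0.0832 CPM in M13, M17 and M24, and 4.77, 4.73 and 4.06 CPM in G27, G28 and G42. The groups were free of overlap, with the PZH rats just below the normal range. It fell by 4.79 ± 0.96 on the log2 scale in DEN model rats (adjusted p = 0.00462), and its level after PZH was 3.66 ± 1.00 above the DEN model (adjusted p = 0.0378) and -1.16 ± 0.34 from normal control (adjusted p = 0.0866). The DEN model counts were 0, 21 and 2, and the difference between PZH and DEN model rats passed in no run that left out M13, M24, G27, G28 or G42 (adjusted p from 0.0736 to 0.102) nor without the filter on low counts (0.0526).

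Akr1c14, listed also as Akr1c9 and the main hydroxysteroid dehydrogenase of rat liver, was the most abundant member in normal liver. Its CPM was 1573, 2208 and 1295 in N1, N3 and N12, 620, 864 and 555 in M13, M17 and M24, and 1235, 1334 and 1503 in G27, G28 and G42. The DEN model rats were below all the others, and the PZH rats overlapped the normal control rats. It was 2.46-fold lower in DEN model rats (SE 0.34 on the log2 scale, adjusted p = 0.0135), was 1.02 ± 0.28 higher after PZH (2.03-fold, adjusted p = 0.0409), and lay -0.32 ± 0.27 from normal control after PZH (adjusted p = 0.590). Under library totals the first pair of differences shrank to -0.45 and 0.38 and passed no more, and the fall also missed the threshold without M13 (adjusted p = 0.0649) or M24 (0.0512). Of the 6 runs that left out a rat, the higher level after PZH passed without M17 (adjusted p = 0.00892) and in none of the other 5 (adjusted p from 0.0557 to 0.177).

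Akr1c1, Akr1c3 and Akr1c14 lie in one cluster on chromosome 17 with other reductases, and the cluster did not move as a block. In the order of the file, the rows are Akr1e2, Akr1c2, Akr1c1, Akr1c12l1, Akr1c13, Akr1c19, Akr1c12, Akr1c3, Akr1c14 and Akr1cl, between 69365453 and 69862110. Akr1c12, second in FPKM to Akr1c14 among the Akr1c rows of normal liver, had 579, 694 and 772 CPM in N1, N3 and N12, 110, 145 and 112 CPM in M13, M17 and M24, and 419, 546 and 419 CPM in G27, G28 and G42. Its groups did not overlap, and it fell by 2.46 ± 0.26 in DEN model rats (adjusted p = 2.66e-04) and was 1.94 ± 0.24 higher after PZH (adjusted p = 0.00850). Akr1c19, whose neighbour in that order is Akr1c12, took the opposite course, with 4.60, 6.29 and 8.77 CPM in normal control, 52.5, 16.5 and 48.0 CPM in DEN model and 6.18, 14.6 and 13.5 CPM in PZH administration rats. Akr1c19 rose by 2.58 ± 0.45 in DEN model rats (adjusted p = 0.00229) and fell by 1.76 ± 0.47 after PZH (adjusted p = 0.0365), a fall that passed in none of the 5 runs without M13, M24, G27, G28 or G42. The Akr1c genes are close copies of each other whose reads may be shared between rows, and the summed CPM of the 9 Akr1c rows (Akr1e2 apart) was 2267 to 3005 in the normal control, 885 to 1136 in the DEN model and 1736 to 2010 in the PZH administration group.

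**Figure D3:**
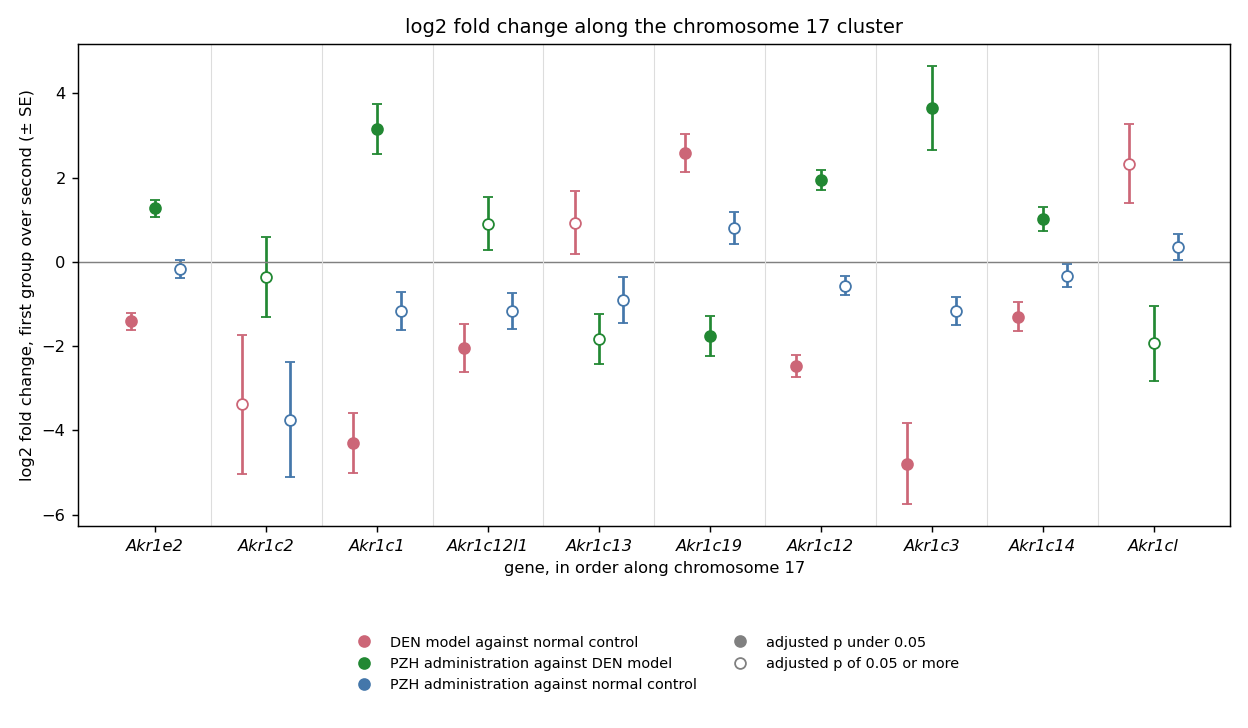
Points are log2 fold changes of the first over the second group named in the legend, with bars of ± 1 SE from edgeR's quasi-likelihood fit, for 10 genes in their order along chromosome 17 and filled where the adjusted p was under 0.05. Akr1c19 at 2.58 stands opposite its neighbour Akr1c12 at -2.46 in DEN model against normal control rats, and 0 of the 10 were called in PZH administration against normal control, where Akr1e2 turned sign under library totals.

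Single rats carried some of the remaining rows of the cluster. Akr1cl had 148 CPM in rat M13 and between 9.39 and 22.1 CPM in the other 8 rats. Akr1c2 had 345 CPM in N12 against 14.9 and 11.4 CPM in N1 and N3, between 0.396 and 25.2 CPM in DEN model rats and between 7.33 and 12.0 CPM in PZH administration rats. Akr1c13 was at 175 and 143 CPM in M13 and M24 but at 27.6 CPM in M17, and at 122 CPM in N12 but at 27.5 and 32.5 CPM in N1 and N3. Rat N12 was the highest normal control rat for Akr1c1, Akr1c2, Akr1c12, Akr1c12l1, Akr1c13 and Akr1c19, but the lowest for Akr1e2, Akr1c14 and Akr1cl. Its summed macrophage markers, at 1089 CPM, were above the 580 and 615 CPM of N3 and N1. The part of macrophages in these values was not tested.

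Of the 8 Akr rows that were not members, 4 passed in DEN model against normal control rats, Akr1c19 higher and Akr1c12, Akr1c12l1 and Akr1e2 lower, beside 46.0% of all genes, with a median over the 8 of -0.97 on the log2 scale. Akr1e2, which reduces anhydrofructose, had 92.1, 105 and 75.9 CPM in normal control, 35.1, 39.1 and 27.2 CPM in DEN model and 66.6, 88.6 and 86.4 CPM in PZH administration rats, a fall of 1.41 ± 0.20 in DEN model rats (adjusted p = 9.44e-04) and a level 1.27 ± 0.20 higher after PZH (adjusted p = 0.0106). After PZH, Akr1c12, Akr1e2 and Akr1d1 were higher and Akr1c19 lower than in the DEN model, 4 of the 8 beside 19.1% of all genes. Akr1d1, the steroid reductase that saturates the A ring of bile acid precursors, had 1965, 2352 and 1341 CPM in normal control, 941, 1807 and 1129 CPM in DEN model and 2354, 2985 and 3645 CPM in PZH administration rats. The PZH rats lay above every rat of both other groups, but G27 (2354 CPM) and normal control rat N3 (2352 CPM) were nearly equal. The difference from DEN model rats was 1.23 ± 0.36 (adjusted p = 0.0481), which held without M17 but in none of the 5 runs that left out M13, M24, G27, G28 or G42, and the difference from normal control rats was 0.67 ± 0.29 (adjusted p = 0.266). Against normal control rats 0 of the 8 passed after PZH in edgeR, DESeq2 or limma, where 5.37% of all genes passed in edgeR, and 4 had an unadjusted p under 0.05 in edgeR, Akr1c12, Akr1c12l1, Akr1c2 and Akr1d1.

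Taken as parts of one sum in each rat, the enzyme groups held different shares in the 3 groups of rats. Of the summed FPKM of the 9 members, the 3 Akr1c members held 72.0% ± 7.63 (SD, n = 3) in normal control, 21.8% ± 0.639 in DEN model and 44.0% ± 0.486 in PZH administration rats. The Akr1b members held 0.771% ± 0.221, 23.7% ± 5.69 and 5.57% ± 2.93, and the Akr7a pair held 10.3% ± 3.68, 35.7% ± 7.72 and 35.5% ± 2.52. Akr1a1 held 16.9% ± 3.78, 18.7% ± 3.11 and 14.9% ± 1.28. The sum itself, in FPKM and without TMM scaling, was 829 ± 58.2, 1879 ± 132 and 1258 ± 177 in the same order. The shares add up to the whole in each rat, so a share can fall because other members rose. For the Akr1b and Akr1c shares the 3 groups did not overlap in any comparison, and for the Akr7a share both DEN-exposed groups lay above normal control, each at p = 0.1 in an exact two-sided permutation test (0.15 adjusted over 12 tests), the smallest p that 3 rats against 3 allow. The Akr7a share did not separate PZH administration from DEN model rats (exact permutation p = 1), and Akr1a1 gave p = 0.7, 0.2 and 0.4 in exact permutation tests of the 3 comparisons. A share within a rat does not depend on the scaling between rats but does depend on gene length, and as shares of CPM the Akr1c part was 80.6%, 28.2% and 55.9%.

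**Figure D4:**
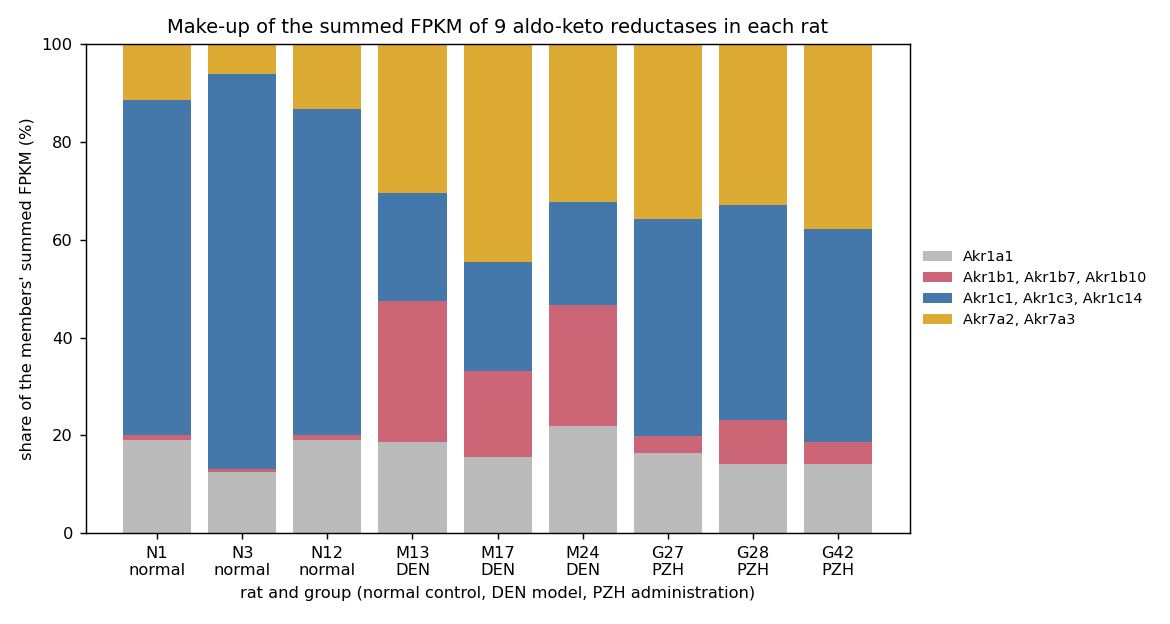
Each bar is 1 rat, and its colours give the share in percent of the summed FPKM of the 9 members held by Akr1a1, the 3 Akr1b, the 3 Akr1c and the 2 Akr7a members. The Akr1c part is 66.7% or more in normal control rats, 22.3% or less in DEN model rats and between 43.5% and 44.5% in PZH administration rats, while the Akr7a part is 30.4% or more in all 6 DEN-exposed rats.

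Genes of the routes in which these enzymes work were counted from lists, to be read against the shares of all genes called, which were 25.4% higher and 20.6% lower in DEN model against normal control rats, 8.74% and 10.4% in PZH administration against DEN model rats, and 4.17% and 1.21% in PZH administration against normal control rats. Unlike the Akr rows, genes of these lists and the markers below were not recomputed under library totals or without single rats. Their directions and medians are relative to the TMM scaling. Of 22 tested genes for Nrf2, the factor that responds to electrophiles, and its targets, 17 rose and 0 fell in DEN model rats (median log2 fold change 1.79 against 0.03 over all genes), 6 were lower and 0 higher after PZH than in the DEN model (median -0.38), and 12 remained higher than in normal control after PZH (median 1.42). Gstp1, the placental glutathione transferase, had 14.6 ± 2.47 CPM in normal control, 1309 ± 245 in DEN model and 580 ± 285 in PZH administration rats (SD, n = 3), and its difference after PZH from the DEN model was -1.16 ± 0.43 (adjusted p = 0.0946). Slc7a11, the cystine carrier, stood at 0.234 ± 0.273, 341 ± 239 and 30.6 ± 27.1 CPM and Gpx2, a glutathione peroxidase, at 0.103 ± 0.0891, 121 ± 62.5 and 17.2 ± 7.46 CPM in the same order, and both fell after PZH (adjusted p = 0.0383 and 0.0138). Nfe2l2, which encodes Nrf2, and its inhibitor Keap1 passed in none of the comparisons, with log2 differences of 0.49 and -0.54 in DEN model against normal control rats (adjusted p = 0.101 and 0.0805).

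Of 18 tested enzymes of aldehyde and carbonyl handling outside the family, 5 rose and 11 fell in DEN model rats (median -0.85), 7 were higher and 1 lower after PZH, and 3 stayed above normal control. Aldh3a1, an aldehyde dehydrogenase, was at 0.0508 ± 0.0880 CPM in normal control, 101 ± 43.4 CPM in DEN model and 90.4 ± 90.4 CPM in PZH administration rats, which spread widely and differed from the DEN model by -0.15 ± 0.67 (adjusted p = 0.898). Cbr3, a carbonyl reductase, was at 0.978 ± 0.0551, 11.2 ± 9.69 and 2.03 ± 0.251 CPM, with a fall after PZH of 2.44 ± 0.59 on the log2 scale (adjusted p = 0.0273). Ptgr1, which reduces alkenals and prostaglandins, stood at 56.2 ± 19.6, 379 ± 40.5 and 234 ± 91.7 CPM, and its difference after PZH from the DEN model was -0.67 ± 0.32 (adjusted p = 0.172).

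The polyol and ascorbate routes, in which Akr1b1 and Akr1a1 act, had 2 of 10 tested genes higher and 7 lower in DEN model rats (median -1.65), 3 higher and 1 lower after PZH than in the DEN model, and 2 above normal control after PZH. Gulo, which makes the last step of ascorbate synthesis downstream of Akr1a1, fell from 801 ± 185 CPM to 133 ± 52.1 CPM and stood at 539 ± 34.0 CPM after PZH, log2 differences of -2.57 ± 0.35 (adjusted p = 7.72e-04) and 2.04 ± 0.31 (adjusted p = 0.0101). Hk1, a hexokinase of other tissues, rose from 3.69 ± 0.389 to 28.9 ± 9.94 CPM and was at 9.07 ± 2.40 CPM after PZH, and both differences from the DEN model passed the threshold.

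Of 14 tested genes of steroid reduction and bile acid synthesis, the setting of the Akr1c enzymes, 0 rose and 11 fell in DEN model rats (median -1.69), 9 were higher and 0 lower after PZH (median 1.44), and 2 were below normal control after PZH. Akr1d1, described above, is on this list and is 1 of the 9 that were higher. Hsd3b5, a steroid dehydrogenase of male liver, fell from 487 ± 86.3 to 11.8 ± 6.67 CPM and was at 297 ± 238 CPM after PZH. Hsd17b6 was at 189 ± 35.3, 19.4 ± 22.9 and 138 ± 68.2 CPM and Amacr, a racemase of bile acid side chains, at 356 ± 121, 46.5 ± 30.6 and 213 ± 152 CPM in the order normal, DEN and PZH, and all 3 passed in both of the first 2 comparisons. Of 11 tested retinoid genes, 4 rose and 5 fell in DEN model rats, 3 were higher and 1 lower after PZH, and 4 stayed above normal control. Aldh1a2, which makes retinoic acid from the retinal that Akr1b10 can reduce, was at 0.525 ± 0.380, 13.6 ± 7.11 and 3.62 ± 0.821 CPM in the same order, with adjusted p = 4.89e-04, 0.0177 and 0.0242 in the 3 comparisons.

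Markers of cell types also differed between the groups. Hepatocyte markers were lower in DEN model than in normal control rats for 7 of 10 genes, beside 20.6% of all genes. They were higher after PZH than in the DEN model for 5 of 10, beside 8.74% of all genes. Hnf4a, Ttr and Alb were among those that changed in both. Against normal control 0 of 10 were called after PZH in edgeR's test, where 5.37% of all genes were. Of these 10 log2 fold changes, 8 were below 0 (median -0.39). All 8 ductular markers rose in DEN model rats and fell after PZH, and 7 of 8 stayed above normal control. Of all genes, 25.4% rose in DEN model rats, 10.4% were lower after PZH and 4.17% were above normal control after PZH. Of 9 stellate cell and myofibroblast markers, summing to between 205 and 331 CPM in normal control, 1143 and 3357 CPM in DEN model and 657 and 789 CPM in PZH administration rats, 8 rose, 5 fell after PZH and 5 stayed higher. Among the DEN model rats, M17 had the highest hepatocyte sum, 78970 CPM against 47397 in M13 and 33946 in M24, and the lowest ductular sum, 281 CPM against 683 and 816. Among the members, M17 was the DEN model rat with the highest Akr7a3, Akr1b7, Akr1c14, Akr7a2, Akr1a1 and Akr1c3. It had the lowest Akr1b10, Akr1b1 and Akr1c1. Of the other Akr rows, M17 was highest for Akr1c12, Akr1d1 and Akr1e2. It was lowest for Akr1c2, Akr1c12l1, Akr1c13 and Akr1c19, and in the middle for Akr1cl. M17 and M24 lay close for Akr1b10 (606 and 615 CPM) and for Akr1a1 (327 and 311 CPM).

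Immune, endothelial, gut and blood markers are to be read against all genes called, 25.4% higher and 20.6% lower in DEN model rats. After PZH, 8.74% of all genes were higher and 10.4% lower than in the DEN model. The 7 measured lymphocyte markers summed to between 25.5 and 35.7 CPM in normal control, 67.9 and 158 CPM in DEN model and 37.7 and 51.7 CPM in PZH administration rats, 3 of 5 tested being higher in the DEN model. The macrophage sums overlapped between all groups (314 to 1089 CPM over the 9 rats), but single markers moved in opposite directions. Of 8 tested macrophage markers, 1 rose (Lyz2) and 3 fell (Cd5l, Clec4f and Marco) in DEN model rats. After PZH 4 were lower and 0 higher than in the DEN model. The 6 measured sinusoidal endothelial markers summed to between 465 and 514, 204 and 350, and 394 and 475 CPM. Of these, 1 rose and 4 fell in DEN model rats, and 2 were higher and 1 lower after PZH. Intestinal markers summed to between 193 and 214 CPM in normal control rats, to 110, 23.0 and 500 CPM in M13, M17 and M24, and to between 31.3 and 123 CPM in PZH administration rats, with Cdx1 at 0 in all normal control and PZH administration rats. Most of the normal control sum was Cdh17, at 202 ± 11.5 CPM, which passed in no comparison. Of 4 tested intestinal markers, Tff3 and Vil1 rose in DEN model rats (adjusted p = 0.00388 and 0.00135, edgeR). Both were lower after PZH than in the DEN model (adjusted p = 0.0248 and 0.0153). Granulocyte and red cell markers summed to 767 CPM in M13 and to 324 CPM or less in the other 8 rats, and Elane was at 0 in all normal control and PZH administration rats. Hbb alone had 212 ± 102, 358 ± 326 and 89.6 ± 35.5 CPM in the order normal, DEN and PZH. Of 4 tested, S100a8 and S100a9 rose in DEN model rats (adjusted p = 6.49e-04 and 8.23e-04, edgeR). These and Alas2 were lower after PZH than in the DEN model (adjusted p = 0.0127, 0.0138 and 0.0352). The part of any of these cell types in the levels of the reductases was not tested.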

How the data were processed

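Liver RNA of 9 rats was analysed from 1 deposited gene table, in which the authors gave whole-number read counts per gene and rat without normalization, and FPKM that the authors computed from those counts, the gene length and the library total. The table also holds the authors' own group comparisons (their log2 fold changes with P and Q columns), none of which was used. The submitters' processing notes name fastp, HISAT2 2.1.0, StringTie 1.3.3b and edgeR 3.30.3. The genome build, the counter and any use of strand are not given in the sources used here.

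The deposited counts were tested in R 4.3.3 with edgeR 4.0.16 (filterByExpr, TMM factors, robust glmQLFit and glmQLFTest), taking only the 6 rats compared and no covariate, with Benjamini-Hochberg adjusted p over all genes tested, and SE and 95% intervals from the same fit. Shares of FPKM were compared by exact permutation tests. Each fit was also run on simulated data in which 200 genes differed by 2 log2 units, of which 187 (93.5%), 182 (91%) and 181 (90.5%) were called in the 3 comparisons, beside 8, 11 and 6 unchanged genes. The simulation gave every gene the same dispersion and moved as many genes up as down. Its rates are therefore not the power of the real comparisons. Alternatives were DESeq2 1.42.0, library totals, other filters, one fit of all groups, the study's thresholds, limma 3.58.1 on log2(FPKM + 1), shares of CPM, and leaving out each rat. They covered the Akr rows, the shares and the totals over all genes, not single list or marker genes.

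The members and gene lists were chosen with earlier results of these data known. Every member was named, any tested Akr row could be, and from each list at most the 3 genes with the largest absolute log2 fold change among those called in DEN model against normal control rats, plus Nfe2l2 and Keap1. The marker genes named and LOC100910708 were picked after their values were seen. Depth limits genes near 3 counts. A gene that this rule would name is not reported here.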

Additional observations from a re-analysis of the deposited data

How the results depend on the processing

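No paired analysis was possible because the groups share no rat numbers. Of 78 recomputed counts of calls, 66 stayed within 1.5 times the value reported. Of 663 checks of log2 fold changes, 570 kept their direction and side of the threshold, with no limit set on their size. Among the rest, 58 no longer passed, 16 newly passed and 19 turned sign. Checks at the study's thresholds reused the reported fold change. Leaving out single rats gave 2 to 7 members called in PZH administration against DEN model rats and 1 to 5 of the other Akr rows, and at the study's thresholds these counts were 2 and 0, with 2 of the other Akr rows in DEN model against normal control rats. Under library totals the called members split into 5 higher and 2 lower (4 and 3 with TMM) in DEN model against normal control rats and into 2 and 4 (3 and 3) in PZH administration against DEN model rats.

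Shares of CPM in place of FPKM were 32.7% for the Akr1b members in DEN model rats, 80.6%, 28.2% and 55.9% for the Akr1c members in the order normal, DEN and PZH, 26.04% and 26.1% for the Akr7a pair in DEN model and PZH administration rats, and 10.7%, 13.01% and 10.4% for Akr1a1 in the 3 groups. In DEN model against normal control rats, Akr7a2 turned to 0.19 under library totals and 0.20 in limma, and Akr1d1 to 0.31 in both. In PZH administration against DEN model rats, Akr7a2 turned to -0.073 under library totals and -0.063 in limma, and leaving out single rats gave -0.25 to 0.35 for Akr7a3 (above 0 without M17, G27 or G28), -0.94 to 0.84 for Akr1c2 and -2.40 to 0.10 for Akr1cl (both above 0 without M13). In PZH administration against normal control rats, Akr7a2 turned to 0.11 under library totals and 0.14 in limma and Akr1e2 to 0.070 and 0.057, and leaving out single rats gave -0.24 to 0.039 for Akr7a2 (above 0 without N12 or G42), -1.27 to 0.074 for Akr1c13 (above 0 without N12) and -0.0065 to 0.60 for Akr1cl (below 0 without G28). None of these 19 was called in the first place, and the cause was not tested. Counts near the floor limit Akr1b7 in normal control rats and Akr1c3 in DEN model rats.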
